A study of Rattus norvegicus with 8 samples.

Results

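The genes described here encode the proteins of the mitochondrial ribosome, taken as every gene whose current symbol starts with Mrpl (large subunit) or Mrps (small subunit). The expression array held 97 probe sets, groups of short probes against one transcript, that were annotated to exactly 1 such gene. They cover 73 of the 14217 genes with a symbol, 46 named Mrpl and 27 named Mrps. Of the 97 probe sets 29 varied, meaning that their range over the 8 arrays was above 0.01 log2, and these belong to 28 genes. The other 68 held practically 1 value on every array and therefore carry no measured difference.

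Liver RNA came from male Sprague-Dawley rats aged 7 weeks, with 1 array per rat and 4 arrays in each of 2 groups. According to the design text both groups, of 11 rats each, ate CRF-1 rodent feed with cholesterol (10 g per kg) and cholic acid (5 g per kg) for 2 weeks, and the second group also received freeze-dried live Lactobacillus brevis 119-2 (10 g per kg). The source label of the control arrays mentions CRF-1 only, and the design text was followed. No rats on feed without cholesterol are among these arrays, so both groups carry the cholesterol and cholic acid load. Values are log2 signals as deposited, and each difference is L. brevis minus control.

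Mitochondria keep their own ribosome, which translates the few proteins encoded by mitochondrial DNA, all of them parts of the oxidative phosphorylation complexes. Its RNAs come from the mitochondrial genome, while all of its proteins are encoded in the nucleus, made in the cytosol and imported. Some of these proteins descend from the bacterial ribosome and others have no bacterial counterpart. Liver is rich in mitochondria, and the promoters of such genes are known to use the transcription factors NRF1, YY1 and the ETS factor GABP (also called NRF2).

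Mitochondrial ribosomal protein genes showed no common direction between the diets. Of the 29 varying probe sets 14 were higher and 15 lower with L. brevis, and the median difference was -0.020, the same as the median of -0.020 over all 6323 varying probe sets. After median centring of the arrays the split was 17 higher and 12 lower, and the median over all varying probe sets was 0.017. None of the 29 passed an adjusted p under 0.05 (limma, Benjamini-Hochberg over all varying probe sets), where 0.0633% of all varying probe sets were called. The smallest adjusted p among them was 0.101. At an unadjusted p under 0.05 there were 4 higher and 4 lower, together 27.6%, against a background of 24.5% over all varying probe sets (10.7% higher and 13.8% lower), so this share is near the background. Single genes differed in opposite directions, from -0.95 to 1.05, and both of these extremes belong to Mrpl50.

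**Figure D1:**
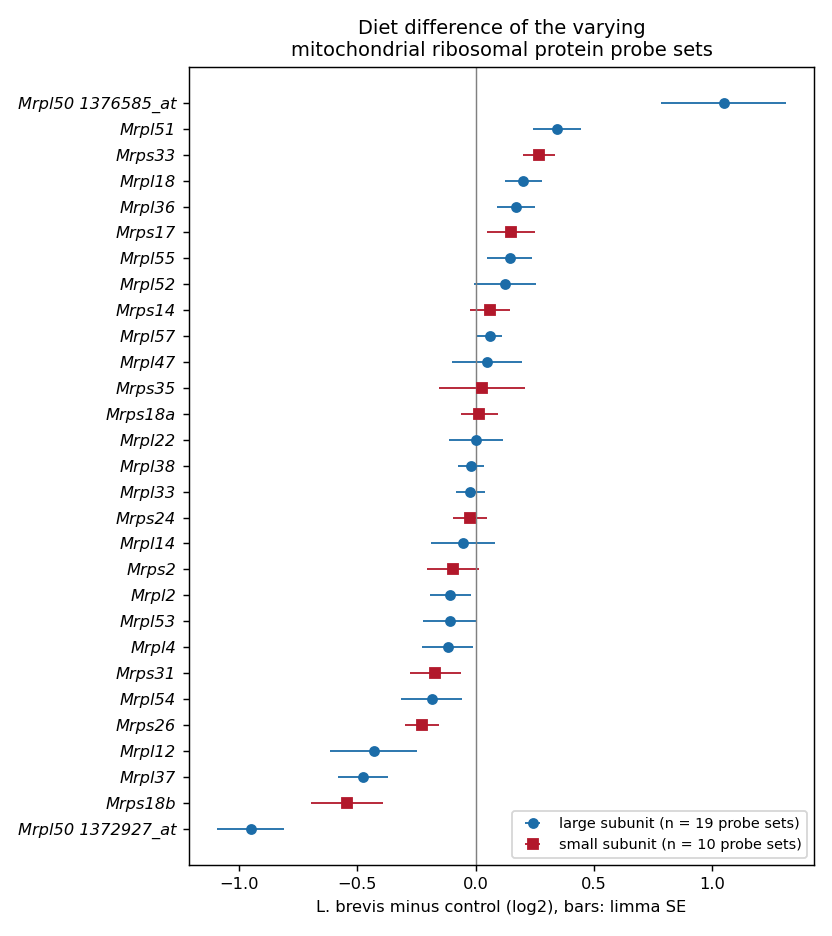
Diet difference (L. brevis minus control, log2, horizontal axis) of each of the 29 varying probe sets, with the limma SE as a bar, for the large subunit (blue circles, 19 probe sets) and the small subunit (red squares, 10 probe sets). The points lie on both sides of 0 in both subunits, and the Mrpl50 probe sets stand at opposite ends, at 1.05 and -0.95.

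Mrpl50, a large subunit protein without a bacterial counterpart, was the only gene of the family with several varying probe sets, and these pointed in opposite directions. Probe set 1372927_at read 8.50, 8.11, 7.93 and 8.42 in control rats 1 to 4 and 7.16, 7.40, 7.22 and 7.39 in L. brevis rats 1 to 4. Every L. brevis rat lay below every control rat, with a gap of 0.53 between the groups. The means were 8.24 ± 0.27 and 7.29 ± 0.12 (SD, n = 4 each), a difference of -0.95 (SE 0.14), or 1.93-fold lower, at an adjusted p of 0.101 (limma).

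The other Mrpl50 probe set, 1376585_at, read 7.90, 8.62, 7.98 and 8.57 in the controls and 8.69, 9.36, 9.56 and 9.65 in the L. brevis rats. Here every L. brevis rat lay above every control rat, although L. brevis 1 cleared the highest control by 0.076 only. The means were 8.27 ± 0.38 and 9.32 ± 0.43 (SD, n = 4 each), a difference of 1.05 (SE 0.26), or 2.07-fold higher, at an adjusted p of 0.125 (limma). The annotation gives both probe sets to the same gene, and it does not say which part of the transcript each one reads. The direction of Mrpl50 RNA as a whole is therefore undetermined in these data.

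These probe sets also differed in how they moved with a measure of RNA quality. The array carries control probe sets against the 5' and 3' ends of the GAPDH transcript, and a low 5' signal relative to 3' goes with shortened RNA or incomplete labelling. GAPDH 5' minus 3' was -2.89, -1.83, -2.93 and -1.98 in control rats 1 to 4 and -2.20, -1.30, -0.94 and -0.68 in L. brevis rats 1 to 4. It was thus higher in L. brevis rats 2 to 4 than in any control, while L. brevis 1 lay inside the control range. Probe set 1376585_at was lowest in controls 1 and 3, the rats with the lowest GAPDH value, and highest in L. brevis 2, 3 and 4, the rats with the highest. With the GAPDH value as a covariate its difference was 0.32 (adjusted p = 0.486, limma), against 1.05 without it. The difference of 1372927_at was -1.04 with the covariate (adjusted p = 0.433), close to its -0.95 without. The part of RNA quality in either difference was not tested beyond this covariate, and the GAPDH value moves with the diet in 3 of the 4 L. brevis rats.

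**Figure D2:**
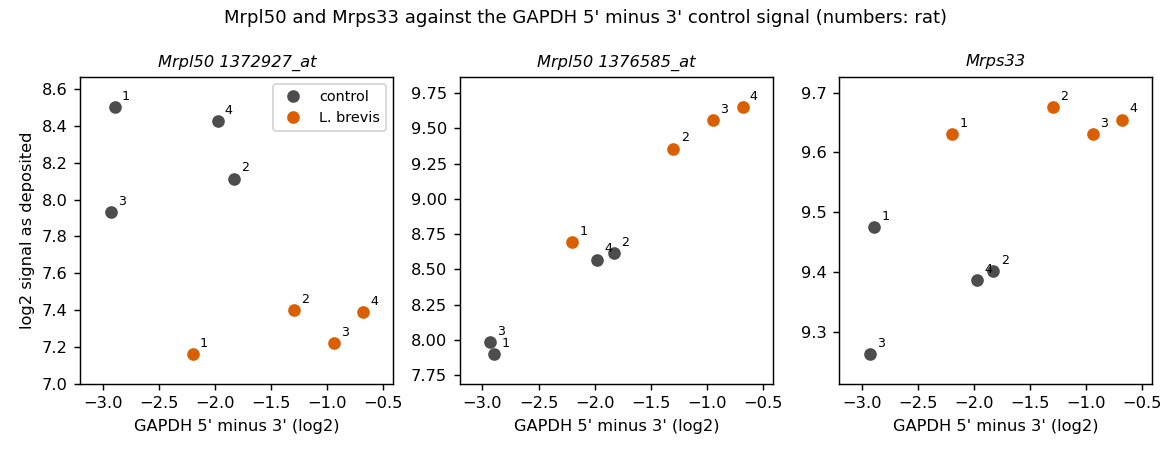
Log2 signal of both Mrpl50 probe sets and of Mrps33 (vertical axes) against the GAPDH 5' minus 3' signal of the same array (log2, horizontal axis), with control rats in grey, L. brevis rats in orange and the rat number beside each point. Probe set 1376585_at climbs with the GAPDH value across both groups. Every panel splits by diet, with L. brevis 1 on the side of its group, though narrowly at 1376585_at.

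Mrps33, a small subunit protein, had already drawn attention in an earlier analysis of these data, so its values are given as a description. It read 9.48, 9.40, 9.26 and 9.39 in control rats 1 to 4 and 9.63, 9.68, 9.63 and 9.66 in L. brevis rats 1 to 4. All L. brevis rats lay above all controls, and they differed among themselves by far less than the controls did. The means were 9.38 ± 0.088 and 9.65 ± 0.022 (SD, n = 4 each), a difference of 0.27 (SE 0.067), or 1.20-fold higher, at an adjusted p of 0.125 (limma).

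Mrps33 was also placed among the other members. It ranked 7 among the 29 probe sets by size of difference, and 3 by p. Its pooled SD between rats of a diet was 0.064, the rank 4 from the smallest, after Mrpl57, Mrpl33 and Mrpl38. Over all 6323 varying probe sets it ranked 227 by p. With the GAPDH covariate the difference was 0.245 (adjusted p = 0.629, limma), and it was 0.27 without both L. brevis 3 and 4 (adjusted p = 0.509). It passed the adjusted threshold without L. brevis 1 (difference 0.27, adjusted p = 0.0490), a setting that called 1146 of all varying probe sets (18.1%) and 7 of the 29 members.

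Altogether the diets did not overlap at 6 of the 29 probe sets, 2 higher and 4 lower, which is 20.7%. Over all varying probe sets the groups did not overlap in 11.3% (4.21% higher and 7.09% lower). Beside both Mrpl50 probe sets and Mrps33 these were Mrpl37, Mrps18b and Mrps26, all lower with L. brevis. The same 6 were separated after median centring and after quantile normalization, and Mrpl18 joined them after median centring.

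Mrpl37, a large subunit protein without a bacterial counterpart, read 9.46, 9.52, 9.54 and 9.21 in control rats and 9.14, 8.85, 8.97 and 8.87 in L. brevis rats. The closest rats of the groups, control 4 and L. brevis 1, were 0.070 apart. The difference was -0.47 (SE 0.11, adjusted p = 0.116, limma), 1.39-fold lower, and -0.32 with the GAPDH covariate. Of its 3 probe sets the other 2 held 1 value on all arrays.

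Mrps18b is one of several mammalian relatives of the bacterial protein S18. It read 9.74, 9.86, 9.59 and 9.49 in control rats and 9.43, 9.28, 8.90 and 8.89 in L. brevis rats. L. brevis 3 and 4 were the lowest, and L. brevis 1 lay 0.065 below control 4. The difference was -0.54 (SE 0.15, adjusted p = 0.136, limma), 1.46-fold lower, and it was -0.33 with the GAPDH covariate and -0.31 without both L. brevis 3 and 4.

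Mrps26, of the small subunit, had a smaller difference and a narrow spread. It read 9.36, 9.34, 9.40 and 9.19 in control rats and 9.15, 9.07, 9.14 and 9.03 in L. brevis rats, so that control 4 was only 0.043 above the highest L. brevis rat. The difference was -0.23 (SE 0.072, adjusted p = 0.149, limma), or -0.14 with the GAPDH covariate. Its other probe set did not vary.

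**Figure D3:**
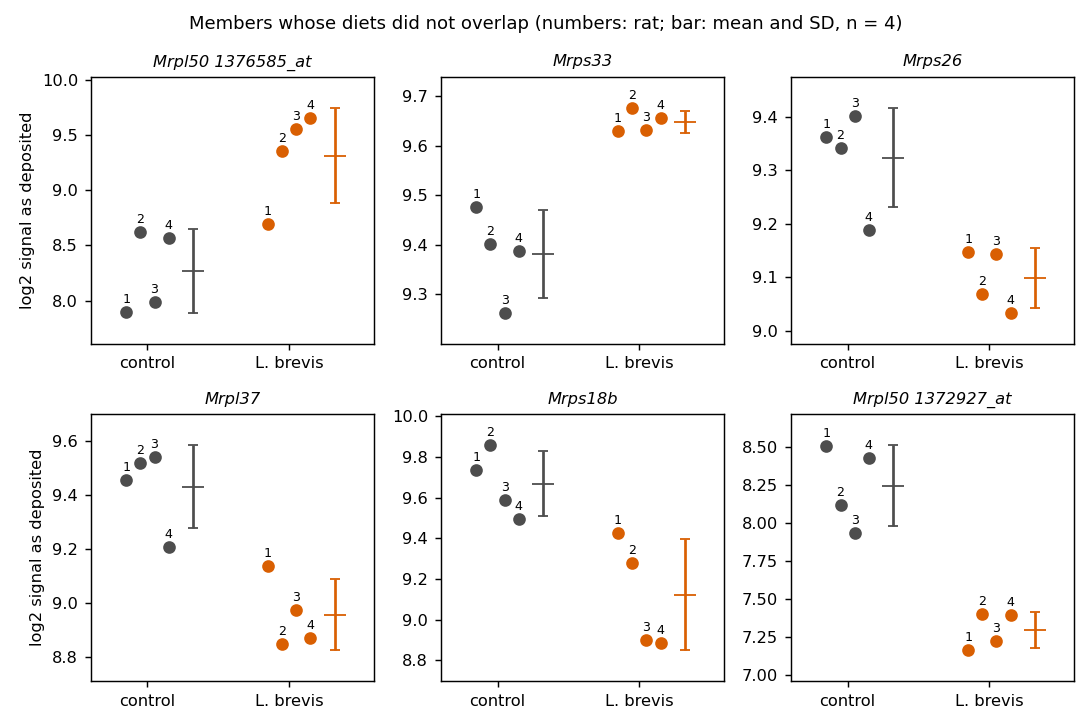
Log2 signal as deposited (vertical axes, each with its own range) of the 6 probe sets whose groups did not overlap, with each rat as a numbered point and the mean with SD (n = 4) as a bar, for control (grey) and L. brevis (orange). L. brevis 1 is the rat closest to the controls at Mrpl37, Mrps18b, Mrps26 and Mrpl50 1376585_at, and the 4 L. brevis rats nearly coincide at Mrps33.

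Among members whose groups overlapped, the next largest differences on the higher side were those of Mrpl51 and Mrpl18. Mrpl51, of the large subunit, differed by 0.34 (SE 0.10, adjusted p = 0.136), from 6.83 ± 0.12 to 7.18 ± 0.17, and L. brevis 1, at 6.93, lay below control 2, at 6.99. Its other 3 probe sets held constant values, and with the GAPDH covariate the difference was 0.10. Mrpl18, the counterpart of bacterial L18, differed by 0.20 (SE 0.079, adjusted p = 0.179), from 9.89 ± 0.087 to 10.09 ± 0.10, with L. brevis 2, at 9.94, as the one rat inside the control range. Mrpl36, the counterpart of bacterial L36, differed by 0.17 (SE 0.080) and Mrpl55 by 0.14 (SE 0.096). With the GAPDH covariate they stood at 0.037 and -0.042, the latter on the other side of 0.

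On the lower side Mrpl12, which forms the stalk of the large subunit and is also known to bind mitochondrial RNA polymerase, differed by -0.43 (SE 0.18, adjusted p = 0.205). It read 10.41, 10.41, 10.44 and 9.91 in control rats and 10.29, 9.74, 9.82 and 9.59 in L. brevis rats. Control 4 lay with the L. brevis rats and L. brevis 1 near the other controls. The difference was -0.046 with the GAPDH covariate. Mrpl54 had the same arrangement of rats, with control 4 at 9.74 against 10.02 to 10.06 in the other controls, and L. brevis 1 at 10.10 against 9.63 to 9.70 in the others. Its difference was -0.19 (SE 0.13), 0.079 with the covariate and -0.29 without L. brevis 1. Mrps31, of the small subunit, differed by -0.17 (SE 0.11), with control 1 at 8.28 and L. brevis 2 at 7.68 as its extremes. It was -0.096 without that control rat and -0.10 without that L. brevis rat. In 7 members control 4 was the lowest control and L. brevis 1 the highest L. brevis rat. These were Mrpl12, Mrpl37, Mrpl4, Mrpl53, Mrpl54, Mrps18b and Mrps26, so they share an arrangement of rats. Over all varying probe sets control 4 was the lowest control in 28.4%. Counted separately, L. brevis 1 was the highest of its group in 39.9%.

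Without L. brevis 1 the adjusted threshold was passed by 7 members: both Mrpl50 probe sets, Mrpl12 (-0.58), Mrpl37 (-0.53), Mrps18b (-0.65), Mrpl51 (0.43) and Mrps33. Array weights, which gave L. brevis 1 the lowest weight (0.320) and L. brevis 3 the highest (3.36), called the same and Mrps26 (8 members), with 24.7% of all varying probe sets called. The fit to all 8 rats with equal weight does not share these calls.

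Mrps35 and Mrpl47 are named for their spread between rats. Mrps35, of the small subunit, ranged from 9.07 to 9.58 in control rats and from 8.98 to 9.75 in L. brevis rats, with a difference of 0.028 (SE 0.18) that was -0.11 without L. brevis 1 and was also negative after quantile normalization, with array weights and without control 1. Mrpl47, the counterpart of bacterial L29, had an SD of 0.083 in control and 0.29 in L. brevis rats, with a difference of 0.048 (SE 0.15), or -0.047 without L. brevis 1 and 0.18 without L. brevis 4. The GAPDH covariate gave 0.29. In both genes L. brevis 1 was the highest rat of all 8.

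The remaining 14 varying probe sets, of 14 genes, differed by amounts between -0.12 (Mrpl4) and 0.15 (Mrps17), and all had an unadjusted p above 0.05. They include the counterparts of bacterial L2, L4, L14, L22 and L33 (Mrpl2, Mrpl4, Mrpl14, Mrpl22 and Mrpl33) and of S2, S14 and S17 (Mrps2, Mrps14 and Mrps17). Mrpl22 was nearest to equality, with 9.42 ± 0.17 in control and 9.42 ± 0.15 in L. brevis rats. Mrpl57 had the smallest spread, a pooled SD of 0.039, and differed by 0.061 (SE 0.053). Of all 29 probe sets, 14 differed by less than 1 pooled SD between rats and 8 by more than 2.

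The members spread less between rats of a diet than varying probe sets as a whole. The pooled SD had a median of 0.144 (quartiles 0.094 and 0.188) over the 29 probe sets, against 0.220 (quartiles 0.131 and 0.365) over all varying probe sets, and 25 members lay below the latter median. The median pooled SD was 0.118 for cytosolic ribosomal proteins and 0.152 for oxidative phosphorylation subunits, so this spread is not particular to the members. Mean levels of the varying members ran from 7.00 to 10.22. Levels of different probe sets are not compared, since each has its own probe response.

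The medians of large and small subunit were close. Of the 19 Mrpl probe sets 9 were higher and 10 lower, with a median difference of -0.020. Of the 10 Mrps probe sets 5 were higher and 5 lower, with a median of -0.0047. The large median minus the small one was -0.015, and its sign was opposite in 9 of 19 alternatives. For scale, the large minus small median deviation of single rats had a pooled SD of 0.046 within a diet. That SD is not the error of the difference. Despite their names Mrps18a and Mrps30 sit in the large subunit in structures of the mammalian mitochondrial ribosome. Mrps18a differed by 0.016 (SE 0.079), with the opposite sign in 4 alternatives, and Mrps30 held 1 value on all arrays, and with both counted as large subunit the subunits' medians differed by 0.017.

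The subunits were also followed rat by rat. The deviation of a rat from each probe set's mean over the 8 rats had a median between -0.050 and 0.067 over the large subunit and between -0.011 and 0.044 over the small subunit in control rats. In L. brevis 2 it was -0.11 in the large and -0.12 in the small subunit, the lowest of all rats in both, while over all varying probe sets that rat stood at -0.029. In L. brevis 3 it was 0.046 and 0.050. L. brevis 2 was the lowest rat of its group at 12 of the 29 members (41.4%), against 21.8% of all varying probe sets. The same rat had the highest summed skeletal muscle, erythroid and stellate cell signal of all 8. Over 7 measured of 8 muscle markers the summed linear signal was 9734 in L. brevis 2 and 1735 to 2952 in the other rats. Over 3 measured of 4 erythroid markers it was 20900 against 2644 to 8202, and over 6 stellate cell markers 5092 against 2928 to 4627. By probe set the stellate median deviation was 0.17 in L. brevis 2, below 0.31 in control 2 and 0.21 in L. brevis 4. All 7 varying hepatocyte probe sets also lay above their mean in this rat. The part of this signal in the low member values was not tested. Without L. brevis 2 the median difference of the 29 members was 0.0037.

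**Figure D4:**
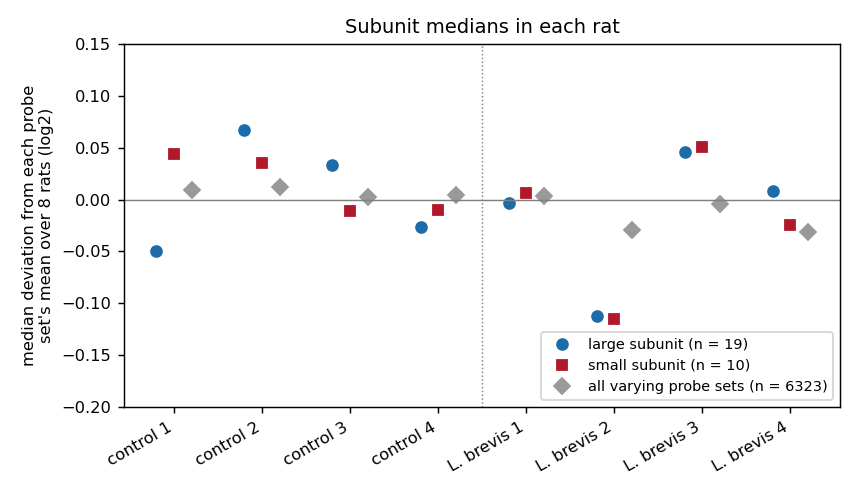
Median over probe sets of each rat's deviation from the probe set's mean over the 8 rats (log2, vertical axis), for the large subunit (blue circles), the small subunit (red squares) and all varying probe sets (grey diamonds), by rat (horizontal axis). L. brevis 2 is low in both subunits, at -0.11 and -0.12, and the subunits lie widest apart in control 1, at -0.050 and 0.044.

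Hepatocyte markers fitted the tissue label: all 7 were measured, with albumin at 14.55, and their summed linear signal ran from 72890 to 74730 in control and from 72550 to 75520 in L. brevis rats. Albumin dominates that sum, and by probe set 6 of 7 varying ones were higher with L. brevis. At an unadjusted p under 0.05 there were 2 higher, where 10.7% of all varying probe sets were. Macrophage markers (6 measured of 7) summed to 3804 to 5055 in control and 4112 to 5092 in L. brevis rats, and all 5 varying probe sets were higher. Of these, 2 had an unadjusted p under 0.05, against the same 10.7% of all. Endothelial markers (5 measured of 6) summed to 2478 to 3359 in control and 2156 to 2258 in L. brevis rats, lower with L. brevis in every rat. That sum is weighted to the brightest marker, Kdr, and by probe set 4 of 5 varying ones were lower. In 2 of them the groups did not overlap, as in 7.09% of all varying probe sets. The part of these markers in the member differences was not tested. In whole liver, fewer cells of a type and less RNA per cell cannot be told apart.

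Other genes of the mitochondrial translation system, from lists chosen by function, gave no call either (0 of the list genes at an adjusted p under 0.05). Of 20 mitochondrial aminoacyl-tRNA synthetases, the enzymes that charge mitochondrial tRNAs, 16 were measured and 6 varied, 1 higher and 5 lower, with a median difference of -0.39. Of these, 4 were lower at an unadjusted p under 0.05, where 13.8% of all varying probe sets were, and in 3, all lower, the groups did not overlap, as in 7.09% of all. Nars2, the asparagine enzyme, differed by -0.42 (SE 0.10), from 7.33 ± 0.039 to 6.90 ± 0.21. Tars2, the threonine enzyme, differed by -0.56 (SE 0.14), from 8.50 ± 0.15 to 7.94 ± 0.25. Rars2, the arginine enzyme, differed by -0.38 (SE 0.11), from 8.04 ± 0.16 to 7.66 ± 0.17. Their adjusted p values were 0.125, 0.125 and 0.140 (limma), and L. brevis 1 was the highest L. brevis rat in each.

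Of 18 translation factors 16 were measured and 5 varied, 2 higher and 3 lower (median -0.18), with 2 lower at an unadjusted p under 0.05 (13.8% of all varying probe sets were). Mtif2, the initiation factor, differed by -0.58 (SE 0.20), and Mtfmt, which formylates the initiator methionyl-tRNA, by -0.18 (SE 0.062), with no overlap between the groups for Mtfmt. Tufm, the elongation factor Tu, differed by 0.59 (SE 0.26, adjusted p = 0.218, limma), and its groups overlapped. It read 6.56, 7.16, 6.66 and 7.17 in control rats and 6.87, 7.42, 7.58 and 8.03 in L. brevis rats. Its lowest values were thus in controls 1 and 3, the rats with the lowest GAPDH 5' minus 3'. The part of RNA quality in its difference was not tested. Of 32 other mitoribosome proteins and assembly factors all were measured, but only 5 varied, 1 higher and 4 lower (median -0.11), with 1 higher at an unadjusted p under 0.05 (10.7% of all). Mterf3, needed for building the large subunit, differed by 0.25 (SE 0.089), Trub2, a pseudouridine synthase, by -0.17 (SE 0.085), and Gtpbp10, a GTPase of large subunit maturation, by -0.11 (SE 0.090).

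Among 18 regulators of mitochondrial biogenesis and transcription, all measured, 9 genes varied at 11 probe sets, 4 of them higher and 7 lower (median -0.13), with 1 higher at an unadjusted p under 0.05 (10.7% of all). Gabpa, the DNA-binding subunit of GABP, read 8.08, 8.04, 7.65 and 7.95 in control rats and 8.10, 8.46, 8.14 and 8.25 in L. brevis rats. The groups did not overlap, but L. brevis 1 and control 1 were close, and the difference was 0.31 (SE 0.13, adjusted p = 0.192, limma). Polg2 and Twnk, which replicate mitochondrial DNA, differed by -0.24 (SE 0.13) and -0.40 (SE 0.22).

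Cytosolic ribosomal proteins and subunits of oxidative phosphorylation, the groups nearest in function, are given for scale, without a test of the difference between groups. More of their probe sets varied, 34 of 58 (58.6%) and 42 of 90 (46.7%), against 29 of 97 (29.9%) for the mitochondrial ribosome and 23.4% of all probe sets with 1 symbol. Cytosolic ribosomal proteins had 13 higher and 21 lower with a median of -0.032, and oxidative phosphorylation subunits 30 higher and 12 lower with a median of 0.093. No probe set of either group was called at an adjusted p under 0.05 (limma). At an unadjusted p under 0.05 there were 4 higher and 0 lower cytosolic ribosomal proteins, and 12 higher and 2 lower oxidative phosphorylation subunits. These are 11.8% and 33.3% of their varying probe sets, against 24.5% of all. By rat, the median deviation of oxidative phosphorylation subunits was -0.18, 0.036, -0.047 and -0.073 in control rats 1 to 4. In L. brevis rats 1 to 4 it was -0.017, 0.024, 0.099 and 0.12. L. brevis 3 and 4 also had the highest GAPDH 5' minus 3' values. The part of RNA quality in this direction was not tested.

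The members' promoters were searched for letters that the choice by symbol did not use. RefSeq windows on GRCr8, from 250 bases before to 50 after the transcription start, were held for 59 of the 73 genes. They were searched on both strands for the NRF1 letters (GCGC, any base, then TGCGC), the ETS letters CCGGAAG (bound by GABP among others) and the YY1 letters AAGATGGCG. The NRF1 letters were in 15.3% of the members' windows, in 8.5% of the 11700 windows of genes on the array and in 4.7% of all 27457 windows of this length. The ETS letters were in 33.9%, 15.1% and 9.2%, and the YY1 letters in 13.6%, 3.1% and 1.9%, in the same order. At least one of the 3 was found in 30 of 59 members (50.8%), against 23.6% for genes on the array and 14.3% of all windows. The share was 51.4% for oxidative phosphorylation subunits and 38.1% for cytosolic ribosomal proteins. The median GC content was 56.0% in members, 52.3% in all windows and 60.0% in genes on the array. Members with a varying probe set held one in 13 of 25 windows and the others in 17 of 34. Such a match is a run of letters and does not show binding.

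For the separated members the matches are printed below as examples. They were picked by their diet values, and none was called at an adjusted p under 0.05 in the main fit. Capitals mark the motif, and each line gives the strand of the gene 5′ to 3′. The coordinates cover the whole printed line, with 10 bases on each side of the motif. The distances count from the transcription start to the first base of the motif. Mrpl50 (chr5:68668043-68668071, minus strand, from base 27 after the start) and Mrpl37 (chr5:127074943-127074971, minus strand, from base 7 after the start) hold the YY1 letters. Mrps18b (chr20:2842976-2843005, plus strand, 20 bases before the start) holds the NRF1 letters, here the same on both strands. Next to them are ETS letters on the opposite strand (chr20:2842993-2843019, 3 bases before the start). Mrps26 holds ETS letters (chr3:138222331-138222357, plus strand, from base 18 after the start) and NRF1 letters (chr3:138222343-138222372, from base 30 after the start), both on the opposite strand.
Mrpl50 YY1: gagcttgtcgAAGATGGCGgcgctgtgtg
Mrpl37 YY1: tgcccgggcaAAGATGGCGgcgtccaggt
Mrps18b NRF1: tccttgtccgGCGCATGCGCagtcgttctt
Mrps18b ETS: cgcagtcgttCTTCCGGcaggccgtac
Mrps26 ETS: tcctcgaccaCTTCCGGacagggcgca
Mrps26 NRF1: tccggacaggGCGCAGGCGCtagctgtcat
The window of Mrps33 held none of the 3 motifs, which says only that these letters are not in those 300 bases.

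The 45 genes without a varying probe set include Mrpl1, Mrpl3, Mrps5, Mrps7 and Mrps12. The 68 constant probe sets, of these and other members, held values between 5.81 and 10.25, and 66 of them kept their value to within 1e-06 log2. Of 18 genes with several probe sets, 8 were constant at all of them and 9 varied at some only. A constant value does not show that the gene was equal in all rats.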

How the data were processed

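Liver RNA of 8 rats was hybridised to Affymetrix 3' arrays, 1 per rat. Per the labels' protocols, RNA was extracted with Trizol, column-purified and biotin-labelled with a 3' IVT kit. The authors deposited normalized log2 signals; summarisation, normalization and scan batches are not given in the sources used here. Array medians lay between 6.61 and 6.63. Of 31099 probe sets 57 Affymetrix controls were left out. Symbols were updated through gene identifiers, which matched for all 97 member probe sets and changed no member's symbol.

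The 6323 probe sets with a range above 0.01 log2 entered a linear model per probe set in R 4.3.3, using limma 3.58.1 with variances moderated along the intensity trend. Two-sided p-values were adjusted by Benjamini and Hochberg's method over all 6323, with a threshold of 0.05. Constant probe sets were left out because they carry no difference; a fit to all 31042 is an alternative. The fit was run on simulated data with independent noise. Such data lack the variation that probe sets of the same rat share, so that run does not bear on the calls here. The labels call the rats biological replicates. Precision is limited by there being 4 arrays a group.

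The members, lists, motifs and tests were chosen with earlier results of these data known. Named are Mrps33, the 6 higher and 6 lower genes with the smallest p, the 5 with the largest spread, genes with several varying probe sets, Mrps18a and Mrps30, and up to 3 genes a list; members whose groups did not overlap all fall under this rule. Alternatives were median centring, quantile normalization, all probe sets, a range above 0.1 log2, no trend, array weights, the GAPDH covariate, a replicate block and leaving out rats. Counts of members without overlap and at an unadjusted p under 0.05 were compared across settings after seeing the data.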

Additional observations from a re-analysis of the deposited data

Results flagged for a closer look

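Within a group of 4 rats, 4 values stood far from the other 3, among 40 groups of values examined; chance marks about 1 in 20. At Mrpl12 control 4 had 9.91, with the nearest control at 10.41. At Mrpl18 L. brevis 2 had 9.94, with the nearest at 10.13. At Mrpl54 control 4 had 9.74, with the nearest at 10.02, and L. brevis 1 had 10.10, with the nearest at 9.70. Control 4 and L. brevis 1 thus each lay on the other group's side at Mrpl54.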

How the results depend on the processing

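The count of called members was 0 in 15 of 17 alternatives and rose to 8 with array weights, and leaving out single rats gave 0 to 7. The median member difference ran from -0.027 to 0.017, for scale beside a pooled SD of 0.055 between single rats' median deviations. Large minus small was 0.039 with array weights, and -0.010 to 0.033 with single rats left out. Mrps33 differed by 0.22 to 0.30 throughout. It passed the threshold with array weights (0.27, adjusted p = 0.0251) and without L. brevis 1, and ran from 0.23 to 0.30 with single rats left out. The replicate numbers were not taken to pair the rats, because the deviations of same-numbered rats correlated at 0.359, 0.203, 0.078 and 0.381 and the third was under 0.1. Rats with different numbers were not compared in this way, so these values do not decide whether the rats were paired. A replicate block left 0 members called, with Mrps33 at 0.27 (adjusted p = 0.0929), a median of -0.020 and large minus small of -0.015. With the block the smallest adjusted p among members was 0.0697 (limma), against 0.101 in the main fit. The share of all varying probe sets at an unadjusted p under 0.05 was 31.2% with the block. Members at an unadjusted p under 0.05 numbered 8, but 13 with array weights, 4 with the GAPDH covariate and 3 without both L. brevis 3 and 4, a count followed after seeing the data. Over all varying probe sets the share was 24.5%, and 42.4%, 7.86% and 9.65% in the settings named, in that order. Of all varying probe sets 4 were called in the main fit. The fit that took in the constant ones called 44, a count over all 31042 probe sets. Called varying probe sets numbered 2 with quantile normalization, 1 with a range above 0.1 log2 and 1561 with array weights. They numbered 0 to 1146 with single rats left out, and 0 with median centring, the GAPDH covariate or the block.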
